A study of Mus musculus with 46 samples.

Results

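Candidate cis-regulatory elements (cCREs), 13 in all, from the stretch of mouse chromosome 8 that runs from Ap1m1 over Klf2 into Eps15l1 were examined for their effect on the Klf2 promoter and on the other promoters of the locus. Members were all Klf2-locus cCREs starting inside that stretch except the fragments E065 and E067, which left 13 of the 82 Klf2-locus cCREs measured before a promoter, and 13 of the 84 measured behind one. Over all loci of the series, 368 cCREs were measured before a promoter. The host cells were E14TG2a, a line of mouse embryonic stem cells, kept in 2i+LIF, that is with inhibitors of MEK and GSK3 and leukaemia inhibitory factor. Cells received barcoded plasmids by nucleofection and were harvested for RNA 24 h later. In the Upstream assay a cCRE sat before a promoter fragment and both lay upstream of the reporter; in the Downstream assay the cCRE lay behind a reporter driven by the promoter. Each assay had 3 biological replicates of cDNA, transfected with one plasmid mix per assay, so the errors given do not cover variation from one barcoded plasmid to the next. All plasmids were read outside the chromosome, in 1 cell line and at 1 time.

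Klf2 is a zinc finger transcription factor of the Krüppel-like family and belongs to the network that holds mouse embryonic stem cells in the naive pluripotent state. Ap1m1 encodes a subunit of the AP-1 clathrin adaptor, and Eps15l1 encodes a protein of clathrin-coated pits. A massively parallel reporter assay reads many designed constructs in one culture by giving each its own barcodes and dividing barcode RNA by barcode DNA. Activity here is that deposited ratio. The boost index compares each construct, on the log2 scale, with the median of those that carry its promoter in its orientation, so 0 is the middle construct and 1 is 2-fold above it. Upstream that median was taken over cCRE constructs only. Downstream it also took in control inserts of shuffled sequence, but not random control inserts, so 0 is not the same reference in the assays.

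Every member spanned 450 bp between its listed start and end (build mm10), and no member overlapped another Klf2-locus cCRE. Before the Klf2 promoter lay E042 (chr8:72257372-72257822), E044 (chr8:72261862-72262312), E046 (chr8:72271221-72271671), E048 (chr8:72272295-72272745), E050 (chr8:72284920-72285370), E052 (chr8:72291215-72291665), E055 (chr8:72302385-72302835) and E057 (chr8:72311070-72311520). E042 reached 15 bp into the end of Ap1m1, E050 overlapped the annotated gene Gm39197 by 102 bp, and the other 6 overlapped no annotated gene. E046 and E048 were the closest pair, 624 bp apart. Behind the promoter lay E061 (chr8:72333997-72334447), between Klf2 and Eps15l1, and 4 members inside the span of Eps15l1, namely E063 (chr8:72348919-72349369), E068 (chr8:72382321-72382771), E069 (chr8:72387578-72388028) and E070 (chr8:72400550-72401000). Whether these 4 fall in exons or introns was not analysed here. E057 was the nearest to the Klf2 promoter, at 7.59 kb between centres, followed by E061 at 15.3 kb and E055 at 16.3 kb, and E070 was the farthest at 81.9 kb.

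The Klf2 promoter fragment, P016 (chr8:72318657-72319107), was the only promoter fragment starting within the stretch. The RefSeq promoter windows (GRCm38.p6) of Klf2 and of Eps15l1 are shown. P016 is the promoter the results turn on, and 4 members lie inside Eps15l1. The promoter fragment of Eps15l1, P017, lies past the last member, E070, which ends at 72401000. Capitals mark GC boxes, and the Klf2 window lies nearly whole within P016.
Klf2, chr8:72318812-72319111, plus strand: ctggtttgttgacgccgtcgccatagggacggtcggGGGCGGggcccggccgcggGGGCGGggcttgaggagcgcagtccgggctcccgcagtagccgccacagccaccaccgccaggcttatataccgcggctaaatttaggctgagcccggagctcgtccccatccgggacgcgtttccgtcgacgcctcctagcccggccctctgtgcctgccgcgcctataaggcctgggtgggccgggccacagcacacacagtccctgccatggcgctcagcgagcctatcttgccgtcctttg
Eps15l1, chr8:72421425-72421724, minus strand: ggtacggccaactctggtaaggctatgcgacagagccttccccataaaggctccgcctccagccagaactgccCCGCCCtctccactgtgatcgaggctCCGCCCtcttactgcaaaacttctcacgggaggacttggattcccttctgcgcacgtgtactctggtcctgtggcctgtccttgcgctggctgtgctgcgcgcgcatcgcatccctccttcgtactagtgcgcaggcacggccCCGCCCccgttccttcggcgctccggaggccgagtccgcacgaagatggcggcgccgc
The Klf2 window had a GC content of 69.3% and 32 CpG dinucleotides, against a median of 53.0% and 7 over 32544 RefSeq promoter windows of this length. It held 2 GC boxes (GGGCGG on either strand), a word found in 35.9% of all windows, and the Eps15l1 window held 3. Neither window held a CCAAT box (CCAAT, 37.4% of all windows) or a TATA box (TATAAA, 13.6%). Neither held the octamer of POU factors (ATGCAAAT, 1.75%), a SOX word (CATTGTT, 3.71%), the ESRRB word (TCAAGGTCA, 0.412%), the KLF CACCC box (GCCACNCCC, 5.78%) or the STAT word (TTCCNGGAA, 1.16%). The TFCP2L1 word (a pair of CCAG with 6 bases between, 3.47%), the AP-1 word (TGANTCA, 7.79%) and the CTCF core (2.44%) were also absent from both. Both strands were read, and the GC, CCAAT and TATA boxes were added after the windows were seen. The member sequences were not analysed here.

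Members differed widely in how often they were measured. Upstream they formed 706 constructs with 23 promoters, from 4 for E069 to 90 for E061, and 5 of these had a replicate listed at 0 and were left out, which left 701. With P016, 9 members were measured in 25 constructs, and E042, E048, E055 and E069 were not among them. Downstream there were 215 member constructs with 10 promoters, of which 23 carried P016; there E052 had none and E069 only its minus orientation. Across member constructs the replicates correlated at r = 0.958 to 0.969 Upstream and 0.964 to 0.984 Downstream on the log2 activity scale. Upstream replicates differed in their floor, since the median cCRE alone had an activity of 0.122, 0.0632 and 0.248, and indices of weak promoters were correspondingly spread. The number of barcodes behind each construct was not analysed here, so depth is unknown.

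P016 on its own was active in its plus orientation. Upstream its activity was 1.37, 1.20 and 1.49 in the 3 replicates, while the strongest promoter of the library, P022, gave 19.8, 19.4 and 16.6. In the minus orientation it was 0.236, 0.142 and 0.375, above the median cCRE alone in each replicate (0.122, 0.0632 and 0.248). Downstream, where promoters stood in plus orientation, the vector without insert gave 0.815, 1.37 and 1.11, and control inserts gave 0.629, 1.06 and 0.899.

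E057, the nearest member, gave the highest boost of P016 among the 9 members measured with it Upstream, and had rank 3 among all 47 cCREs. Before P016 in plus orientation, E057 in plus orientation gave activities of 3.09, 2.95 and 3.20, all above the 3 values of P016 alone. The difference from P016 alone was 1.19 on the log2 scale (SE 0.13, n = 3, limma adjusted p = 0.0086). Before P016 in minus orientation the same insert gave 1.47, 0.626 and 1.21, against 0.236, 0.142 and 0.375 for the promoter, a difference of 2.16 (SE 0.49, adjusted p = 0.044). The groups did not overlap in either orientation. E057 alone in plus orientation gave 0.567, 0.482 and 0.656, itself above minus P016 alone in each replicate. In each replicate these values lay below those of the pair with minus P016. The pair was not tested against E057 alone. E057 in minus orientation was not measured with P016.

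E061, behind the Klf2 gene, passed the threshold with P016 in 1 of its 4 arrangements. In plus orientation before P016 in plus orientation it gave 2.48, 3.09 and 4.32, all above P016 alone, a difference of 1.25 (SE 0.24, adjusted p = 0.029). Turned to minus it gave 1.44, 1.29 and 1.35, which lay among the values of P016 alone (difference 0.02, SE 0.14, adjusted p = 0.97). Before minus P016, E061 in plus orientation gave 0.353, 0.484 and 0.519, above P016 alone in each replicate without passing (difference 0.94, SE 0.40, limma adjusted p = 0.19). In minus orientation there the difference was 0.34 (SE 0.45, adjusted p = 0.76). Alone, E061 was near the median cCRE, with a mean activity of 0.128 in plus and 0.160 in minus orientation against 0.121. E057 alone gave 0.564 in plus and 0.335 in minus orientation, ranks 9 and 19 of 147 oriented cCREs.

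E046, 47.4 kb before P016, was measured Upstream with P016 in 1 construct, both in plus orientation. Its activities of 1.83, 3.02 and 2.69 all lay above P016 alone, but the difference of 0.87 (SE 0.23) did not pass the threshold (adjusted p = 0.064). Alone E046 gave 0.526 in plus and 0.345 in minus orientation, ranks 10 and 18 of 147.

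E050, 33.7 kb before P016, was the member with the lowest index with P016 Upstream. In plus orientation before plus P016 it gave 0.660, 0.465 and 0.817, and in minus orientation 0.609, 0.674 and 0.818, all below P016 alone. The differences were -1.09 (SE 0.25, adjusted p = 0.042) and -0.95 (SE 0.17, adjusted p = 0.024). Before minus P016 it did not pass in either orientation. Of the 25 member constructs with P016, these 2 fell and the 3 of E057 and E061 rose. That was 12% higher and 8% lower, beside 10.7% higher and 8.33% lower among the 84 constructs of other cCREs with P016.

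The remaining 5 members showed no construct past the threshold with P016 Upstream. E044 gave 0.951, 1.06 and 1.17 in plus orientation before plus P016, E070 gave 0.676, 0.909 and 1.10, and E063 gave 1.00, 1.69 and 1.08. The values of E044 and E070 lay below P016 alone in all 3 replicates without overlapping it, and those of E063 overlapped it. E052 and E068 were measured in 2 and 1 constructs. With the replicate as a block, E070 in minus orientation before plus P016 also passed (difference -0.48, limma adjusted p = 0.046).

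Over all promoters, 18 of the 701 member pairs Upstream were higher than the promoter alone and 69 were lower, 2.57% and 9.84%, against 4.1% and 12% over all 3685 Klf2-locus pairs. The median difference from the promoter alone was -0.24 over member pairs and -0.28 over all pairs, so a second fragment went with lower activity in the middle construct. Against the median construct instead, whose median difference was -0.01, 14 member pairs were higher and 8 lower. Of all 3685 pairs, 267 were called there, 178 of them higher. With the replicate as a block, 32 member pairs were higher and 131 lower, and of all pairs 1041 were called, 244 of them higher. All 18 member pairs higher than the promoter alone in the main comparison belonged to E057 with 8, E046 with 5 and E061 with 5. They involved P002, P003, P009, P010, P013, P016, P019 and P023. Such a call sets a pair against its promoter alone, not against its cCRE alone. E057 in plus orientation before plus P002 had a mean activity of 0.523, below the 0.564 of E057 alone. Before plus P023 it gave 1.15, above that value. E046 in plus orientation before plus P002 gave 0.605, against 0.526 alone. Whether pairs exceeded the cCRE alone was not tested. E050 had 27 of the 69 lower pairs, at 10 promoters, followed by E070 with 10 and E052 with 8. Leaving out any 1 replicate left no pair called by limma, with 67 to 190 member pairs at an unadjusted p under 0.05.

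Averaged over promoters, E046 and E057 had the highest Upstream boost indices among members, 0.72 ± 0.28 (SD of 3 replicates, 19 promoters) and 0.70 ± 0.21 (22 promoters), ranks 6 and 7 of 82 cCREs. Their SDs exceed the gap between them. E061 followed at 0.37 ± 0.15 over 23 promoters, rank 14, and its index was above 0 with all 23. E046 was above 0 with all 19 of its promoters and E057 with all 22. E050 was lowest at -0.31 ± 0.05 and above 0 with 5 of 23 promoters, within the spread of E069 at -0.26 ± 0.15 over 4 promoters. The members' median was -0.06, as was that of all 82 cCREs.

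The indices of the same fragments varied a great deal from promoter to promoter. How far a fragment's own activity entered its indices at weak promoters was not tested. E057 ranged from 0.01 with P014 to 1.97 with P023, with P016 at rank 3 of 22, at 1.75 ± 0.28. E046 ranged from 0.15 with P014 to 1.65 with P010, and P016 had rank 5 of 19, at 1.17 ± 0.38. E061 was highest with P023 at 1.07, and P016 had rank 4 of 23, at 0.71 ± 0.24. E063 had its highest index with P016, at 0.38 ± 0.34, and E044 its lowest, at -0.63 ± 0.56. Before minus P016 the constructs of E063 had indices of 0.44 and 0.77, and before plus P016 0.16 and 0.15. The differences of E063 from plus P016 alone were -0.14 and -0.15. Among the 19 promoters measured with all 9 members that P016 was measured with, the SD of the members' indices was 0.87 for P016, second to P023 at 0.92, and 0.16 to 0.75 for the others. Whether these spreads differ was not tested. By mean index over the members each was measured with, P024 (0.35), P005 (0.21) and P010 (0.21) were the highest promoters and P007 (-0.08), P009 (-0.05) and P023 (-0.05) the lowest. Over the same 9 members and 19 promoters the order changed: P010 (0.35), P005 (0.28) and P008 (0.27) were highest, P023 had rank 4 (0.26), P016 rank 7 (0.18), and P009 (-0.02) was lowest.

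The question of whether a member treats the Klf2 promoter differently was put to the difference between its mean index with P016 and its mean over the other promoters. Upstream this was tested for the 47 cCREs measured with P016, against the spread between replicates and not between promoters. E057 was the 1 of 9 members that passed, and it was higher with P016. Its index was 2.04, 1.70 and 1.48 with P016 and 0.49, 0.86 and 0.47 over 21 other promoters, a difference of 1.13 (SE 0.17, limma adjusted p = 0.0083), the highest of the 47 but practically equal to that of E019, which lies outside the stretch (1.13, SE 0.17). Of all cCREs, 8.51% passed as higher and 0% as lower, and the members' median difference of -0.06 was near that of all 47, -0.05. At an unadjusted p under 0.05, 5 of the 47 were lower, among them 2 members, E044 and E050.

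This call rested on which arrangements entered. E057 met P016 only in plus orientation, and E057 was higher in plus orientation over promoters in general (difference 0.45). Compared with the same orientations at the other promoters, the difference was 1.05 (SE 0.19, adjusted p = 0.050058), just outside the threshold. Against the 6 other promoters whose activity alone lay within 4-fold of P016, E057 differed by 1.35, E046 by 0.53 (adjusted p = 0.043) and E044 by -0.68 (adjusted p = 0.020). With promoters in plus orientation only, E057, E061 (0.71, adjusted p = 0.0047) and E050 (-0.48, adjusted p = 0.028) passed. Without these restrictions, the differences of E046 (0.44, adjusted p = 0.11), E061 (0.39, adjusted p = 0.11), E063 (0.37, adjusted p = 0.17), E044 (-0.59, adjusted p = 0.11) and E050 (-0.42, adjusted p = 0.13) did not pass. E068 (-0.31), E052 (-0.14) and E070 (-0.06) did not pass either.

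Downstream, more member pairs were called higher than control inserts than lower. At P016 4 of 23 were higher, but this test did not pair the replicates and its SEs were larger there. E063 in plus orientation with P016 did not pass at a difference of 0.40 (SE 0.19). E042 in plus orientation with P017 passed at 0.29 (SE 0.11). With the replicate as a block, 16 of the 23 were called, in either direction. The share called at P016 is therefore not comparable with that at other promoters. Of 215 member pairs, 107 were higher and 10 lower than the mean of shuffled and random inserts with the same promoter, 49.8% and 4.65%, against 37% and 15.3% of all 1364 pairs. The median difference was 0.33 over member pairs and 0.18 over all. The count of lower pairs was the less stable: with the replicate as a block 147 were higher and 26 lower, and without replicate 2 there were 70 and 2. Of all 1364 pairs, 1145 were called with the block, 765 of them higher, and 454 without replicate 2, 342 of them higher. The split also depended on the baseline. Against the promoter vector without insert, 25 member pairs were higher and 51 lower, the median over all pairs being -0.25. Of all 1364 pairs, 723 were called there, 144 of them higher. Against the median construct, 73 member pairs were higher and 15 lower, the median over all pairs being 0.03. There 643 of all pairs were called, 353 of them higher. E046 was higher in 19 of its 20 pairs, at all 10 promoters, E070 in 16 of 20 at all 10, E068 in 13 of 19 and E042 in 12 of 15. E050 was lower in 7 of 20 pairs, at 7 promoters, and higher in 1.

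With P016 Downstream, E046 was the highest of the 12 members, at rank 2 among all 76 cCREs. It gave 1.48, 2.17 and 1.82 in plus orientation and 1.27, 1.85 and 1.52 in minus, each above the control mean of the same replicate. The differences were 1.10 (SE 0.19, adjusted p = 8.0e-04) and 0.86 (SE 0.19, adjusted p = 0.0033). E070 in plus orientation gave 1.01, 1.57 and 1.42 (difference 0.64, SE 0.20, adjusted p = 0.022), and E057 in plus orientation 0.982, 1.44 and 1.30 (0.54, SE 0.20, adjusted p = 0.037). Both lay above the control mean of the same replicate each time (0.629, 1.06 and 0.899). Across replicates the raw values of E070 and E057 overlapped those of the control mean, replicate 1 being the lowest of each.

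E050 and E069 were the members that fell with P016 Downstream. E050 in minus orientation gave 0.392, 0.611 and 0.558 (difference -0.72, SE 0.20, adjusted p = 0.013). E069 in minus orientation, its only construct, gave 0.411, 0.637 and 0.646 (-0.61, SE 0.21, adjusted p = 0.032). In all, 4 of the 23 member constructs with P016 rose and 2 fell, 17.4% and 8.70%, beside 16.2% and 12.8% of the 117 constructs of other cCREs with P016. With the replicate as a block, 16 of the 23 were called, beside 1145 of all 1364 Downstream pairs. Without replicate 3 limma called none of the 23, beside 538 of all 1364, and 2 of the 23 had an unadjusted p under 0.05.

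Of 3 shuffled versions of E046 in the Downstream library, 2 were also active with P016. Shuffled versions keep its bases in another order. With P016 the index was 0.96 ± 0.11 for E046 (SD, n = 3, both orientations), -0.21 ± 0.12 for the first shuffled version, 0.85 ± 0.09 for the second and 1.15 ± 0.04 for the third. Over all promoters the corresponding means were 0.67, -0.23, 0.54 and 0.40. Among all 40 control constructs with P016 the index ranged from -1.06 to 1.84 with a median of -0.17, so every member lay inside the range of the controls.

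In the vector without promoter E046 was again the most active member. It gave 0.467, 0.621 and 0.522 in plus and 0.316, 0.477 and 0.389 in minus orientation, against a median of 0.0814 over 39 control constructs, the highest of which gave 0.532. E048 in plus orientation (mean activity 0.0547), E050 (0.0721 and 0.0711) and E069 (0.0773) were the lowest members there, and lay within the controls' range. The activity of E055 in minus orientation was 0.268 and that of E057 in plus orientation 0.266.

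Over the 10 promoters Downstream, E046 had a mean index of 0.67 ± 0.06 (SD, n = 3), E042 0.49 ± 0.04, E070 0.44 ± 0.03, E055 0.37 ± 0.04 and E068 0.35 ± 0.05. E055 and E068 did not differ beyond their spread. E063 (0.21 ± 0.05), E061 (0.11 ± 0.03), E044 (0.05 ± 0.01), E057 (0.04 ± 0.02) and E048 (0.01 ± 0.04) followed. E052 (-0.04 ± 0.08, 4 promoters), E069 (-0.28 ± 0.05, 5 promoters) and E050 (-0.36 ± 0.03) were below 0, and E050 was above 0 with none of the 10. E057, among the top members Upstream, was thus in the middle Downstream, and E042, E055, E068 and E070, which had means from -0.15 to -0.04 Upstream, were above 0. Across the 13 members the mean indices of the assays had Pearson's r = 0.45 and Spearman's rho = 0.60, against 0.66 and 0.63 over 79 cCREs. These points share their promoters and the median construct of each assay. By mean index over the members each was measured with, P021 (0.34), P009 (0.32) and P013 (0.21) were the highest promoters and P016 (0.09), P017 (0.10) and P001 (0.15) the lowest. Over the 11 members measured with all 10 promoters, P021 (0.34), P009 (0.32) and P018 (0.25) were highest, and P016 (0.16), P017 (0.15) and P001 (0.15) lowest.

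Downstream, the index with P016 differed from the mean over the other promoters for most members, in both directions. The test weighs this against the spread between replicates, not between promoters, and P016 was at the end of a member's promoters for E057 (rank 1 of 10), E050 (10 of 10) and E069 (5 of 5). For the other called members it lay within their range, at rank 2 of 10 for E046, 3 for E063, 7 for E061 and E068, and 9 for E042 and E055. Of 12 members, 3 were higher and 6 lower with P016, 25.0% and 50.0%, shares near the 26.3% and 42.1% of all 76 cCREs. The median difference was -0.13 over the members and -0.03 over all 76. Higher were E046 (difference 0.33, SE 0.03, adjusted p = 0.0019), E057 (0.22, SE 0.04, adjusted p = 0.0076) and E063 (0.11, SE 0.02, adjusted p = 0.013). E046 had indices of 1.08, 0.96 and 0.87 with P016 and 0.70, 0.62 and 0.58 with 9 other promoters. E057 had 0.33, 0.15 and 0.24 with P016 and 0.02, 0.01 and 0.03 with the others.

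Lower with P016 were E069 (-0.42, SE 0.05, adjusted p = 0.0021), E042 (-0.34, SE 0.05, adjusted p = 0.0052), E055 (-0.29, SE 0.03, adjusted p = 0.0021), E050 (-0.23, SE 0.03, adjusted p = 0.0021), E068 (-0.17, SE 0.05, adjusted p = 0.033) and E061 (-0.08, SE 0.03, adjusted p = 0.035). E042 had 0.06, 0.22 and 0.25 with P016 and 0.55, 0.47 and 0.54 with the others. E050 had -0.55, -0.58 and -0.55 with P016 and -0.30, -0.35 and -0.36 with the others. E048 (-0.20, adjusted p = 0.070), E044 (0.01) and E070 (0.00) did not pass. Without replicate 2, 5 of the 12 passed, E042, E061, E063 and E068 being lost. The call of E061 was lost without any 1 of the replicates.

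E057 was thus higher with P016 in both assays and passed in both, though Upstream not with matched orientations. Upstream, P016 had rank 3 of its 22 promoters, behind P023 and P024, and the tests cover only the spread between replicates. A preference for P016 over all other promoters was therefore not shown. E046 and E063 (higher) and E050 and E068 (lower) had differences of one sign in both assays and passed Downstream but not Upstream. E061 was higher with P016 Upstream without passing and lower Downstream. Among the 8 members measured in both assays with P016 the indices had r = 0.55 and rho = 0.55. Distance from P016 went with the Upstream index at r = -0.52 over 9 members and with the Downstream index at r = 0.00 over 12. In the plasmids every member sits at the same place, and these points share one promoter.

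The strength of the receiving promoter went with the index of E050 with opposite signs in the assays, over unlike sets of promoters. Against log2 activity of the promoter alone, its index had r = -0.71 over 23 promoters Upstream and r = 0.73 over 10 Downstream. The Upstream set also took in weak promoters not measured Downstream, with log2 activity alone down to -3.51 (P026). The Upstream relation over only the 10 Downstream promoters was not computed, so the signs cannot be compared between the assays. A reversal over shared promoters was therefore not shown. Among those 10, the weakest alone Upstream were P001 (log2 activity 0.21) and P016 (0.43), where the index of E050 was -0.54 and -0.75. With the strongest, P017 (3.81) and P022 (4.21), it was -0.62 and -0.34. Its lowest was -1.07, with P009 (1.07). Upstream E055 had r = 0.66 over 13 promoters, E057 -0.45 over 22 and E046 -0.41 over 19. The promoter's level enters both measures, since the index is taken against constructs of the same promoter.

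Few members passed for orientation Upstream and most did Downstream. Upstream, E057 was higher in plus orientation by 0.45 (SE 0.08, adjusted p = 0.0048, 13 oriented promoters, 10 of them with plus higher), and E055 in minus by 0.30 (difference -0.30, SE 0.08, adjusted p = 0.033), 2 of 10 members. Over 52 cCREs 21.2% were higher in plus and 13.5% in minus. E055 lost its call without any 1 of the replicates. Without replicate 1 limma called neither, and 2 members had an unadjusted p under 0.05. Downstream, 7 of 11 members were higher in plus and 2 in minus, 63.6% and 18.2%, against 47.8% and 37.7% of 69 cCREs, and the median difference was 0.20 over members and 0.03 over all. The differences were 0.43 for E057 (SE 0.03, adjusted p = 8.7e-05), 0.36 for E050 and for E068, 0.29 for E070, 0.26 for E061, 0.20 for E044 and 0.15 for E046. E048 (-0.16) and E063 (-0.06) were higher in minus. E057 was thus higher in plus in both assays, with plus above minus at all 10 promoters Downstream. Its mean index Downstream was 0.26 in plus and -0.17 in minus orientation, so its mean over orientations near 0 joined a positive and a negative value. What plus and minus mean relative to the genome was not given in the sources used here.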

How the data were processed

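Reporter RNA from 3 biological replicates of the Klf2, Nanog and negative control Upstream mix and 3 of the Downstream mix was analysed. Per the labels, the authors divided cDNA by plasmid barcodes; the deposited activity is that ratio on a linear scale. The submitters' processing notes name Bowtie2 and mm10; barcode counting, filters and scaling are not given in the sources used here. Boost indices were deposited as log2 values. Recomputed from geometric means, they equalled the deposited ones within 0.001 for all 3685 finite Upstream Klf2 and all 2364 Downstream values. Of the value columns, 22 were not used.

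Pairs (log2 activity, 3 against 3), P016 differences and orientation differences (taken within a replicate, so that replicate numbers pair the values by their shared transfection) were fitted with limma (version 3.58.1, R 4.3.3) over all Klf2-locus constructs or cCREs, with Benjamini-Hochberg adjustment at 0.05, two-sided. Constructs listed at 0 in any replicate were dropped, and cCREs needed at least 3 other promoters. A member's value is the mean over its constructs with a promoter, then over promoters. The scripts were tested on simulated data. Python 3.11.15, numpy 2.4.6 and pandas 2.3.3 were used. Named were all members and P016, with the 3 highest and 3 lowest promoters by mean member index; other promoters were named after their values were seen. Members and lists were chosen with earlier results of these data known. Alternatives left out a replicate and changed baseline, pairing, pseudocount (0.01), averaging, centring, orientations and promoters required.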

Additional observations from a re-analysis of the deposited data

Results flagged for a closer look

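With P016, 3 of the 8 members measured in both assays lay below 0 in all 3 Upstream replicates and above 0 in all 3 Downstream replicates. The share over all cCREs was not computed, so whether 3 is unusual is unknown. The median construct set at 0 also differs between the assays. E044 had a boost index of -0.63 Upstream and 0.057 Downstream, E068 of -0.44 and 0.19, and E070 of -0.14 and 0.42. The difference between the assays was not tested. The arrangements differed: E068 was measured Upstream in 1 construct, before P016 in minus orientation, and the mean of E044 included a construct before minus P016 at -1.83, whose replicate activities were 0.0129, 0.0967 and 0.307. Before P016 in plus orientation, the orientation used Downstream, E044 had -0.05 and -0.20 and E070 had -0.32 and -0.19.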

How the results depend on the processing

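Counts are of member pairs called for the pair tests, and of members called for the P016 and orientation differences. Upstream pairs against the promoter alone numbered 87 (5 with P016), 163 with the replicate block, 22 (2 with P016) against the median construct, and 0 (0 with P016) without any 1 replicate. Downstream pairs numbered 117 (6 with P016), 76 against the promoter vector, and 72 (without replicate 2) to 125 without 1 replicate. With P016 they were 10, 2 and 0 without replicates 1, 2 and 3. With the replicate block they were 16 with P016, a setting that called 1145 of all 1364 Downstream pairs. Upstream differences of P016, 1 by default, numbered 0 with the same orientations, 3 against promoters of similar activity (both chosen after seeing the data), 3 with promoters in plus orientation, and 1 to 2 without 1 replicate, E044 joining without replicate 2 (-0.75, adjusted p = 0.046). Downstream differences, 9 by default, numbered 5 to 8 without 1 replicate. Upstream orientation differences, 2 by default, numbered 0 to 1 without 1 replicate. The replicate block also moved the lower Downstream member pairs from 10 to 26; without the replicate block E061 Downstream did not pass (adjusted p = 0.066).

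Of 303 single-member values under alternatives, 268 kept direction and call, 18 lost the call, 8 gained it and 9 reversed. Reversed were, Upstream, E052 (0.15 with plus promoters; -0.38 to 0.00089 without 1 replicate, the latter without replicate 2) and, for orientation without replicate 2, E046 (-0.011; up to 0.034 without others) and E068 (-0.033; up to 0.059). Downstream they were E070 (0.0032 without replicate 1, 0.047 with the median over promoters, 0.0073 centred; it kept its sign without replicate 2, at -0.0093), E044 (-0.0052 with the median) and, for orientation, E042 (-0.0028 without replicate 2, up to 0.055). None of these passed in the main comparison. The cause was not tested. Barcode numbers per construct were not analysed here, and low activities of weak promoters limit their indices.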
